A study of Mus musculus with 6 samples.

Results

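The genes described here are those of glutathione metabolism and of the defence against peroxides and superoxide. They were chosen by name alone: the glutathione S-transferases, glutathione peroxidases, peroxiredoxins, genes named as thioredoxins, thioredoxin reductases or proteins with a thioredoxin domain, superoxide dismutases, catalase, the enzymes that make and reduce glutathione, Nqo1 and the haem oxygenases. The array held 73 such genes among 19100 named genes, with 113 probes among 41174. Of these, 66 genes had at least 1 probe bright enough to be tested, 100 probes in all. The other 7 (Gpx5, Gstt4, Nme8, Nxnl1, Sod3, Txndc8 and Txndc15) had none, so a change in them was not detectable here. The array file lists 6 of the 73 under an older thioredoxin name, among them Erp44, Pdia6, Glrx3 and Tmx1, which are given here under their current names.

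Cells keep glutathione, a small thiol peptide, in its reduced form and draw on it for several ends: peroxidases spend it to reduce hydrogen peroxide and lipid peroxides, and transferases attach it to reactive electrophiles. A parallel chain runs from NADPH through thioredoxin reductase and thioredoxin to the peroxiredoxins. Many genes of both chains are targets of the transcription factor NRF2 (gene Nfe2l2), which binds the antioxidant response element. Lipoxygenases produce lipid hydroperoxides, which are substrates of some of these peroxidases, Gpx4 among them.

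RNA of mouse ventral prostate was hybridised to 6 Agilent whole-genome arrays, each carrying 2 dyes. In red (Cy5) was the RNA of a group: the transgenic line fl26, which carries the lipoxygenase 15-LOX2 in full length, the transgenic line svb9, which carries its splice variant b (both lines aged 2.5 months), or old wild type animals (15 months). There were 2 arrays per group. In green (Cy3) was, on all 6, RNA from wild type animals aged 2.5 months, and all mice had the FVB background. Each RNA came from pooled prostates, of 3 mice by the sample labels and of 6 by the series' design text, and each transgene is represented by a single line. Independent samples are described for the duplicate hybridisations, and nothing says if 1 pool of young animals served several arrays. No dye swap was made, so group and dye cannot be told apart against young wild type, while between groups in red the dye cancels. Values below are log2 ratios, group over young wild type, unless stated otherwise, and errors are limma standard errors with n = 2 arrays, which pool the spread of all 6 arrays.

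The arrays differed in quality. Red signal stood well above background for 27151 and 17623 probes on the fl26 arrays, 27833 and 14620 on the svb9 arrays, and 3219 and 13600 on the old wild type arrays. Green signal, young wild type throughout, did so for 24837 to 30382 probes. Members were brighter than most genes: 77.3% of the 66 lay above the median intensity of the 15403 named genes tested. In red, 60 of the 66 members stood above background on both fl26 arrays, 56 on both svb9 arrays and 29 on both old wild type arrays. On the old arrays, 25 did so on only 1 and 12 on none. Gclc, Cat, Prdx3, Prdx4, Tmx1, Txnrd1 and Txnrd3 were among those without signal well above background in both channels on both old arrays. Spots flagged as uneven or as outliers were left out. On the old arrays 9.73% and 19.5% of member probes had at least 1 such spot, against 1.25% and 3.52% of all probes there. As a result only 45 members had values on all 6 arrays, and the brightest probes of Gpx3, Gstm1, Prdx6, Prdx6b and Sod2 had none in old wild type. The array probe for mouse Alox15b, the counterpart of 15-LOX2, was not bright enough to be tested, and whether it would read the transgene is not given in the sources used here.

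As a set, the 66 members had median ratios near 0 in all 3 groups after loess. Loess centres the ratios of each array near 0 at every intensity, so these medians cannot show a shift shared by genes of like brightness. With each gene represented by its brightest probe, the median ratio was -0.02 in fl26 (27 members above 0 and 39 below), 0.01 in svb9 (34 above and 32 below) and -0.05 in old wild type (27 above and 34 below). Over all named genes tested, the medians were 0.00, -0.00 and -0.02. With median centring in place of loess, bright genes shifted as a whole. The member median became 0.19 for fl26, 0.01 for svb9 and -1.62 for old wild type, against 0.14, 0.02 and -0.66 for all named genes. The signs and sizes of medians given here therefore hold for the loess setting. No member probe passed the test (limma, Benjamini-Hochberg adjusted p under 0.05) in any group: 0 of 100 in fl26, where 0.0503% of all probes passed, 0 of 100 in svb9, where 0% passed, and 0 of 95 in old wild type, where 0% passed. At an unadjusted p under 0.05 the count was 14 of 100 in fl26, against 10.2% of all probes, 6 of 100 in svb9, against 4.45%, and 15 of 95 in old wild type, against 11.4%. The smallest adjusted p of any member was 0.118, for Txnip in old wild type.

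With the replicate number entered as a block, which removes what same-numbered arrays shared, more probes passed. In fl26 these were 11 of 95 member probes (11.6%), against 3.07% of all probes, and in old wild type 9 of 95 (9.47%), against 4.38%. In svb9 the block fit called 0 of 95, against 0%. The members called in this way are named under their roles below. The pairing was read from these data and not from any label. The block takes out part of the spread between the 2 arrays of a group, so its p-values do not measure that spread in full. For Gstm3 in fl26 the standard error was 0.20 without the block and 0.08 with it. With the date of feature extraction from the file headers as a term, 1 of 94 member probes passed in fl26 (a probe of Erp44), against 0.375% of all probes, and 0 of 94 in each other group, against 0% in svb9 and 0.04% in old wild type.

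**Figure D1:**
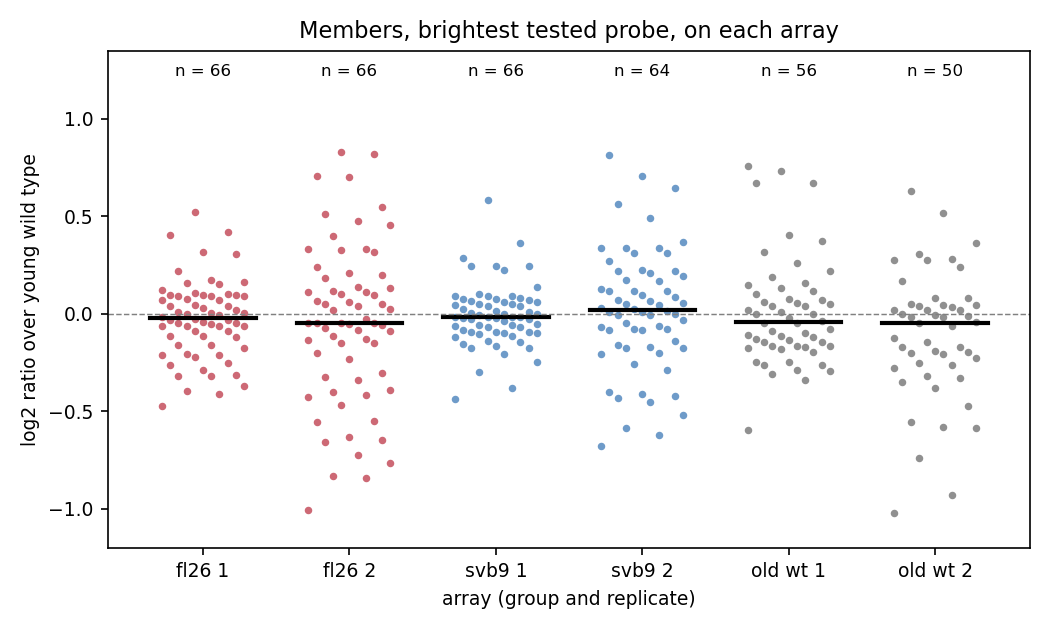
Log2 ratio over young wild type (vertical axis) of each member's brightest tested probe on each of the 6 arrays (horizontal axis), with a bar at the median and the number of members measured above each column. The medians lie near 0 on every array, and the points spread more widely on array 2 than on array 1 of fl26 and of svb9.

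The spread among members was wider on array 2 than on array 1 in every group. On fl26 array 1 the ratios ran from -0.47 to 0.52 with an SD over members of 0.20, and on fl26 array 2 from -1.01 to 0.83 with an SD of 0.41. The svb9 arrays had SDs of 0.16 and 0.31, and the old wild type arrays 0.27 and 0.33. Named genes at least as bright as the median member also spread more on array 2, with SDs of 0.28 and 0.45 on the fl26 arrays, 0.22 and 0.36 on the svb9 arrays and 0.46 and 0.48 on the old wild type arrays. The gap between the 2 arrays of a group had a median over members of 0.27 for fl26, 0.21 for svb9 and 0.20 for old wild type, against 0.18, 0.13 and 0.16 over all named genes. Opposite signs on the 2 arrays were found for 35 of 66 members in fl26, 29 of 64 in svb9 and 18 of 45 in old wild type, against 6943 of 15317, 6551 of 15248 and 5805 of 14143 named genes.

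Spots of 1 probe could be compared where a probe was printed several times. The brightest probe of Prdx2, a cytosolic peroxiredoxin abundant in red cells, was printed 10 times. Its spots had an SD of 0.05 on fl26 array 1 and 0.29 on fl26 array 2, and of 0.05 and 0.29 on the svb9 arrays, so its spots spread more on array 2 in both transgenic lines. On the old wild type arrays, after flagged spots were removed, 8 spots remained on array 1 with an SD of 0.26 and 6 on array 2 with an SD of 0.41. Gsta4, whose enzyme conjugates the lipid aldehyde hydroxynonenal, showed the same order in both lines, with spot SDs of 0.05 and 0.29 on the fl26 arrays and 0.03 and 0.26 on the svb9 arrays. Its ratio was nevertheless close to 0 everywhere, at -0.01 and -0.06 in fl26, -0.08 and 0.07 in svb9 and -0.05 and -0.02 in old wild type. The Sod1 probe printed 10 times did not share this order, with spot SDs of 0.07 and 0.08 on the fl26 arrays and 0.12 and 0.05 on the svb9 arrays. Over the 40 probes of the array printed several times, the median spot SD was 0.06 and 0.18 on the fl26 arrays, 0.06 and 0.14 on the svb9 arrays and 0.12 and 0.14 on the old wild type arrays.

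**Figure D2:**
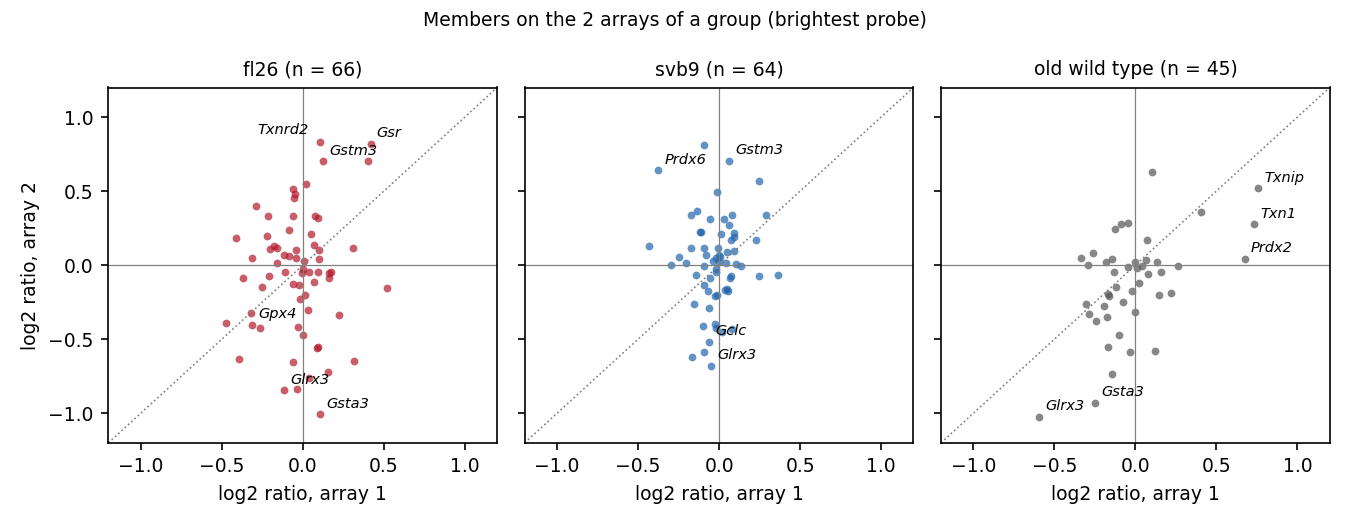
Log2 ratio over young wild type on array 1 (horizontal axis) against array 2 (vertical axis) for each member's brightest probe, in fl26 (66 members), svb9 (64) and old wild type (45). The dotted line marks equal values. Points fill all 4 quadrants, and only a few members, such as Gsr in fl26 and Txnip in old wild type, lie far from 0 near the dotted line.

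The synthesis and recycling of glutathione included the highest mean of fl26 among the members' brightest probes. Gsr encodes glutathione reductase, which regenerates reduced glutathione with NADPH. Its brightest probe had 0.42 and 0.82 on the fl26 arrays, 0.23 and 0.17 on the svb9 arrays and 0.04 on the only old wild type array measured. Both fl26 values lay above all others, so fl26 did not overlap with the other groups. Such separation, in either direction, was found between fl26 and svb9 for 15.6% of 64 members and 24.3% of named genes. Between old wild type and fl26 it was 26.7% of 45 members, against 33.5% of named genes. Between old wild type and svb9 it was 24.4%, against 33.1%. The Gsr mean in fl26 was 0.62 ± 0.12 (limma adjusted p = 0.263), and it passed with the replicate block (adjusted p = 0.0386). Another Gsr probe had 0.33 and 0.42 in fl26, -0.01 and 0.13 in svb9 and -0.13 and -0.03 in old wild type, and also passed only with the block (adjusted p = 0.042). A dimmer Gsr probe went a different way, with 0.28 and -0.25 in fl26, 0.14 and -0.47 in svb9 and -0.04 and -0.01 in old wild type. The difference of fl26 over svb9 for the brightest probe was 0.42, the highest of the 66 members, with an adjusted p over all probes close to 1. Within the extraction date that held array 1 of both lines it was 0.19.

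Gclc encodes the catalytic subunit of glutamate-cysteine ligase, the rate-limiting enzyme of glutathione synthesis. Its ratio lay below 0 on all 6 arrays, at -0.32 and -0.32 in fl26, -0.06 and -0.52 in svb9 and -0.17 and -0.56 in old wild type. The means were -0.32 ± 0.14, -0.29 ± 0.14 and -0.36 ± 0.14, with limma adjusted p of 0.502, 0.98 and 0.4. Since green held young wild type on every array, a ratio of the same sign in all groups cannot be told apart from a dye effect. One sign on all 6 arrays, here and for probes below, was also common elsewhere. It was found for 14.7% of the 75 member probes measured on all 6, against 12% of 26016 tested probes. The modifier subunit gene Gclm had -0.06 and -0.13 in fl26, -0.07 and -0.18 in svb9 and 0.00 and -0.32 in old wild type. Gss, which completes the tripeptide, had -0.09 and 0.24 in fl26, 0.09 and 0.22 in svb9 and -0.34 and 0.05 in old wild type. Its arrays were opposite in sign in fl26 and in old wild type.

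The promoters of these genes were searched for the antioxidant response element core, written TGACNNNGC, on both strands, in the RefSeq sequence (GRCm38.p6) from 250 bases before to 50 after each start site. A promoter was found for 63 of the 73 members. The core was present in 11 of these genes (17.5%), against 14% of all 27025 genes with a promoter, so within this window its share among members was near that of genes in general. Elements farther from the start site were not searched. The stretches around the core are shown for members of 4 roles, all upstream of the start site and read along the gene's strand, with the core in capitals. They serve to show which bases were counted. All 4 genes lie on the plus strand, and in all 4 the core is on the opposite strand, so that it reads GCNNNGTCA. In other members, such as Gsta3 and Gstm5, the core is on the gene's own strand.
Gclm, at chr3:122245363-122245491: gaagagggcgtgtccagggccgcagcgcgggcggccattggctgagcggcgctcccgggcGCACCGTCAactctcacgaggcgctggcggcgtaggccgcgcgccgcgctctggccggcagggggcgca
Mgst1, at chr6:138140411-138140526: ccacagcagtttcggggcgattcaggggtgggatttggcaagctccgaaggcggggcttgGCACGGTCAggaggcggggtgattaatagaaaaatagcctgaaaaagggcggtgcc
Prdx1, at chr4:116685406-116685534: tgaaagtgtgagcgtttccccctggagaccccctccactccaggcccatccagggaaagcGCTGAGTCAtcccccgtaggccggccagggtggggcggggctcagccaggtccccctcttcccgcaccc
Txnrd1, at chr10:82859054-82859182: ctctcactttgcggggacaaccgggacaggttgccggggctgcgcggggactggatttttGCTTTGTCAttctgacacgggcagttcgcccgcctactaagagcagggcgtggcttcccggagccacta

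None of these 4 genes passed the test in any group, with or without the block. Mgst1, a membrane-bound transferase and peroxidase, had 0.32 and -0.65 in fl26, 0.36 and -0.06 in svb9 and 0.08 on the only old wild type array measured with its brightest probe. Its other probe had 0.36 and -0.22 in fl26, 0.36 and 0.54 in svb9 and 0.65 on the other old wild type array. Prdx1, a cytosolic peroxiredoxin, lay above 0 wherever it was measured, at 0.09 and 0.32 in fl26, 0.25 and 0.57 in svb9 and 0.05 in old wild type. Its mean in svb9, 0.41 ± 0.11 (limma adjusted p = 0.98), was among the highest of that group. Txnrd1, the cytosolic thioredoxin reductase, had 0.22 and -0.34 in fl26, -0.02 and -0.42 in svb9 and -0.17 and -0.35 in old wild type. Array 2 gave the lower value in each group.

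The glutathione S-transferases, which conjugate glutathione to electrophiles, form several classes. The 6 mu class genes had a median of -0.01 in fl26 (2 above 0 and 4 below), 0.13 in svb9 (6 above 0) and 0.01 in old wild type. The largest of them, Gstm3, had 0.12 and 0.70 in fl26, 0.06 and 0.71 in svb9 and 0.67 on the only old wild type array measured. Array 2 was high and array 1 near 0 in both lines. Its means of 0.41 ± 0.20 in fl26 and 0.67 ± 0.29 in old wild type did not pass (limma adjusted p = 0.566 and 0.469), and with the block their adjusted p were 0.0489 and 0.0195, the second resting on 1 array. Gstm1 had 0.07 and -0.11 in fl26 and 0.01 and 0.06 in svb9 with its brightest probe. Its other probe lay below 0 throughout, at -0.16 and -0.35 in fl26, -0.08 and -0.22 in svb9 and -0.03 and -0.42 in old wild type. Gstm2 had 0.08 and 0.33 in fl26, 0.06 and 0.27 in svb9 and 0.32 in old wild type. In the reference gene table Gstm6, Gstm3, Gstm2, Gstm1 and Gstm4 are neighbours on chromosome 3, and as close relatives their probes may read each other's RNA.

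The 4 alpha class genes had medians of -0.03 for fl26, -0.05 for svb9 and -0.22 for old wild type, where all 4 lay below 0. On old wild type array 1 the red signal of all 4 was not well above background, and that of Gsta2 was not on array 2 either. The lowest of the class, Gsta3, had 0.11 and -1.01 in fl26, -0.10 and -0.41 in svb9 and -0.25 and -0.93 in old wild type. Array 2 was again the lower in every group, and the mean in old wild type was -0.59 ± 0.28 (limma adjusted p = 0.486, and 0.0516 with the block). Gstt2, of the theta class, had -0.47 and -0.39 in fl26, -0.06 and -0.08 in svb9 and 0.22 and -0.19 in old wild type. Both fl26 arrays lay below all 4 others, where 24.3% of named genes separated fl26 from svb9 in either direction. The Gstt2 difference of fl26 over svb9, -0.36, was the lowest of the 66 members. Its mean in fl26 was -0.43 ± 0.11 (limma adjusted p = 0.307, and 0.0635 with the block). Gstp1, the pi class enzyme abundant in epithelia, had 0.10 and 0.10 in fl26, -0.07 and -0.29 in svb9 and -0.11 on 1 old wild type array. Another Gstp1 probe had 0.12 and 0.26 in svb9, opposite in sign, so the svb9 values for this gene depended on the probe. In fl26 the means of the 2 probes were 0.10 and 0.11. Of the microsomal genes, a dimmer probe of Mgst3 had 0.34 and 0.42 in fl26, -0.02 and 0.05 in svb9 and -0.03 and -0.02 in old wild type, a mean in fl26 of 0.38 ± 0.07 (limma adjusted p = 0.232) that passed with the block (adjusted p = 0.0409). The brightest Mgst3 probe had 0.31 and 0.11 in fl26, and its mean of 0.21 did not pass in either fit.

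**Figure D3:**
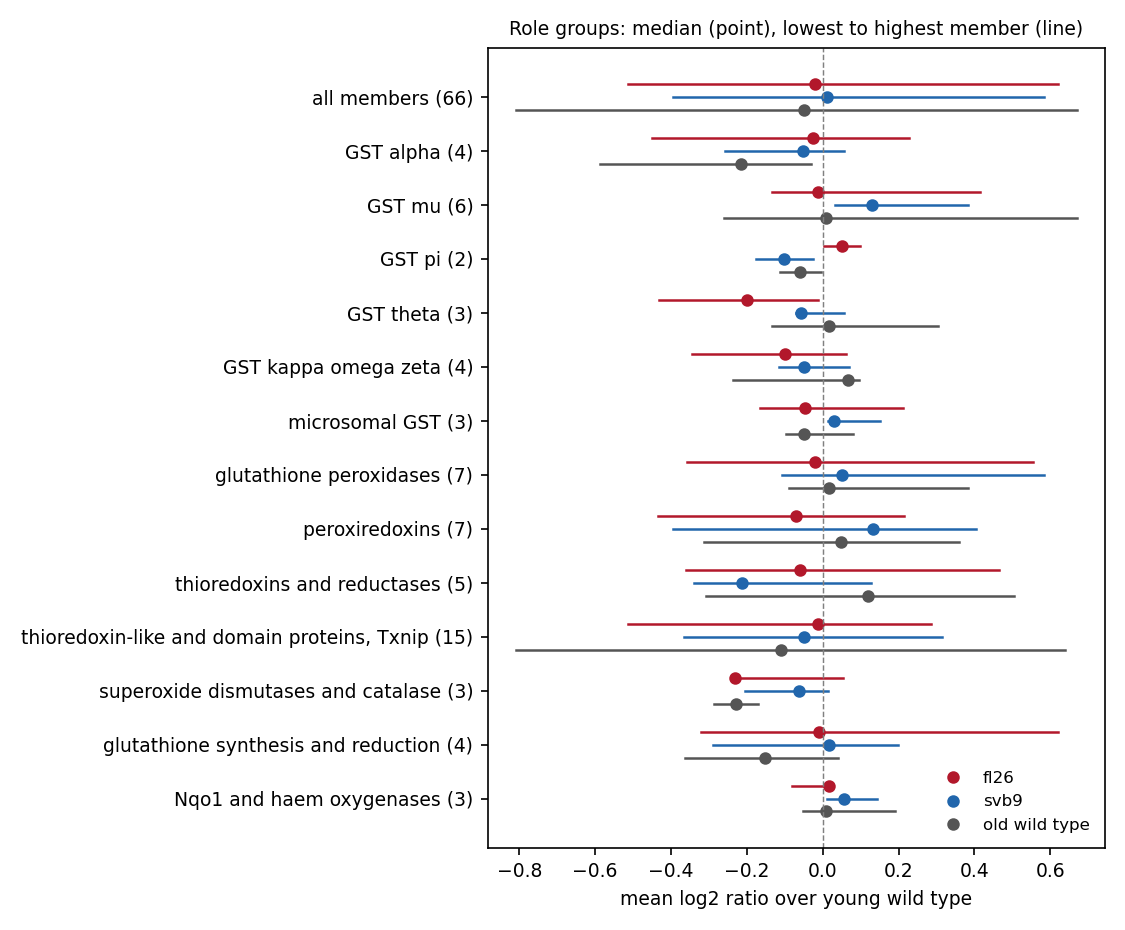
Mean log2 ratio over young wild type (horizontal axis) by role group (rows, number of members tested in brackets), with the median as a point and the lowest to highest member as a line, for fl26, svb9 and old wild type. The medians run from -0.23 for superoxide dismutases and catalase in fl26 to 0.13 for peroxiredoxins in svb9.

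The glutathione peroxidases, which reduce peroxides at the expense of glutathione, had medians of -0.02 for fl26, 0.05 for svb9 and 0.02 for old wild type over 7, 7 and 6 genes. Gpx4, the enzyme that reduces lipid hydroperoxides within membranes, had -0.31 and -0.40 in fl26, -0.01 and -0.20 in svb9 and 0.16 and -0.04 in old wild type. Both fl26 values were the lowest of the 6, where 24.3% of named genes separated fl26 from svb9 in either direction. The mean in fl26, -0.36 ± 0.09, did not pass (limma adjusted p = 0.307) and passed narrowly with the block (adjusted p = 0.0491). Within the extraction date of array 1 of both lines, fl26 over svb9 was -0.30. Gpx3, the secreted plasma form, had 0.41 and 0.71 in fl26 and 0.58 on 1 svb9 array, and was not measured in old wild type. Its fl26 mean was 0.56 ± 0.11 (limma adjusted p = 0.307).

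Gpx1, the abundant cytosolic form, was read differently by its 2 probes. The brightest had -0.21 and 0.33 in fl26, 0.01 and 0.21 in svb9 and 0.26 and -0.01 in old wild type. The other had 0.53 and 1.05 in fl26, 0.45 and 0.56 in svb9 and 0.52 and 1.05 in old wild type, above 0 on all 6 arrays. Its means of 0.79 ± 0.16 in fl26 and 0.79 ± 0.16 in old wild type had limma adjusted p of 0.263 and 0.207, and passed with the block (0.0164 and 0.0155). In svb9 its mean was 0.51 (adjusted p = 0.98, and 0.108 with the block). A ratio above 0 against the same dye in all 3 groups, with the other probe near 0, cannot be told apart from a dye effect on that probe. Gpx2, the gastrointestinal form, had 0.01 and -0.20 in fl26, -0.15 and -0.07 in svb9 and -0.13 and -0.05 in old wild type. The red signal of Gpx6 was not well above background on any array, and no ratio is given for it.

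The peroxiredoxins reduce peroxides with electrons from thioredoxin. Their 7 tested genes had a median of -0.07 for fl26 and 0.13 for svb9. Only 5 had their brightest probe measured in old wild type, where the median was 0.05. Prdx3, the mitochondrial form, lay below 0 on all 6 arrays, at -0.03 and -0.83 in fl26, -0.17 and -0.62 in svb9 and -0.03 and -0.58 in old wild type. Array 2 was the lower in each group. The means were -0.43 ± 0.23, -0.40 ± 0.23 and -0.31 ± 0.23 (limma adjusted p = 0.575, 0.98 and 0.642), and in fl26 the block fit gave 0.046. Prdx6, which reduces phospholipid hydroperoxides, had -0.41 and 0.18 in fl26 and -0.38 and 0.64 in svb9 with its brightest probe. Another Prdx6 probe had -0.45 and -0.34 in fl26, -0.22 and 0.05 in svb9 and 0.56 on 1 old wild type array, where it passed with the block (adjusted p = 0.046). A dimmer Prdx6 probe had -0.11 and 0.03 in old wild type. The brightest probe of Prdx6b, a close copy of Prdx6, had -0.29 and 0.40 in fl26 and -0.10 and 0.81 in svb9, and the probes of these 2 genes may read each other's RNA.

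Of the other peroxiredoxins, Prdx2 had -0.11 and -0.05 in fl26, -0.04 and 0.03 in svb9 and 0.67 and 0.04 in old wild type. Its old wild type mean, 0.36 ± 0.14 (limma adjusted p = 0.425), rested on array 1, and the 2 other Prdx2 probes had -0.02 and 0.14 on that array. Their means were of opposite sign in fl26 (0.10 and -0.25) and in svb9 (0.06 and -0.15). Prdx5, found in mitochondria and peroxisomes, had -0.05 and 0.48 in fl26, 0.03 and 0.31 in svb9 and 0.06 and 0.03 in old wild type. Prdx4, of the endoplasmic reticulum, had -0.24 and -0.38 in old wild type against -0.16 and 0.02 in fl26, with an old wild type mean of -0.31 ± 0.10 (limma adjusted p = 0.332).

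Among brightest probes measured on both old wild type arrays, the highest means belonged to Txnip and Txn1 of the thioredoxin chain. Txnip, the arrestin-like protein that binds and inhibits thioredoxin and is induced by glucose, had 0.76 and 0.52 in old wild type, 0.29 and 0.34 in svb9 and 0.00 and -0.03 in fl26. The 3 groups did not overlap, where any 2 of them did not overlap for 24.3% to 33.5% of named genes. The old wild type mean was 0.64 ± 0.08, a limma adjusted p of 0.118, and with the block the adjusted p was 0.0165. In svb9 the mean was 0.31 ± 0.08 (adjusted p = 0.98, and 0.179 with the block). Within extraction dates, old wild type array 1 lay 0.79 above fl26 array 2, and old wild type array 2 lay 0.18 above svb9 array 2. The dimmer Txnip probe had -0.02 and 0.28 in old wild type, 0.07 and 0.03 in svb9 and 0.00 and -0.31 in fl26, so the height on array 1 was not seen with it. With outlier spots kept, the old wild type mean of the brightest probe was 0.39 in place of 0.64, and median centring turned it to -2.14.

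Txn1, cytosolic thioredoxin itself, had 0.73 and 0.28 in old wild type, 0.03 and -0.30 in fl26 and -0.03 and -0.40 in svb9. Old wild type lay above both lines without overlap. In either direction, 33.5% of named genes separated old wild type from fl26 and 33.1% from svb9. For Txn1, old over svb9, 0.72, was the highest such difference of the 61 members measured, with an adjusted p close to 1. The mean in old wild type was 0.50 ± 0.15 (limma adjusted p = 0.303, and 0.0198 with the block). Within dates, old wild type lay 1.04 above fl26 and 0.68 above svb9. Another Txn1 probe had 0.02 and 0.27 in old wild type, 0.06 and 0.13 in fl26 and 0.04 and 0.02 in svb9, where old wild type overlapped fl26. The old wild type mean of the brightest probe was 0.08 with outlier spots kept, 0.06 with the ratios of Feature Extraction and -2.89 with median centring, so its height depended on these choices. Txn2, the mitochondrial thioredoxin, lay below 0 on all 6 arrays with both of its probes. Its brightest had -0.06 and -0.66 in fl26, -0.10 and -0.58 in svb9 and -0.29 and -0.33 in old wild type, with limma adjusted p of 0.533, 0.98 and 0.539. Txnrd2, the mitochondrial reductase, had 0.10 and 0.83 in fl26, -0.06 and 0.31 in svb9 and -0.05 and 0.28 in old wild type. Its fl26 mean of 0.47 ± 0.19 had an adjusted p of 0.481, and 0.046 with the block, and the 2 other probes of Txnrd2 had fl26 means of 0.04 and -0.05. Txnrd3, the reductase enriched in testis, had -0.06 and 0.33 in fl26, -0.17 and 0.34 in svb9 and 0.10 and 0.63 in old wild type. Array 2 was the higher in each group, and the old wild type mean was 0.37 ± 0.18 (adjusted p = 0.498, and 0.0405 with the block). On the old arrays the Txnrd3 signal was not well above background in both channels throughout.

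**Figure D4:**
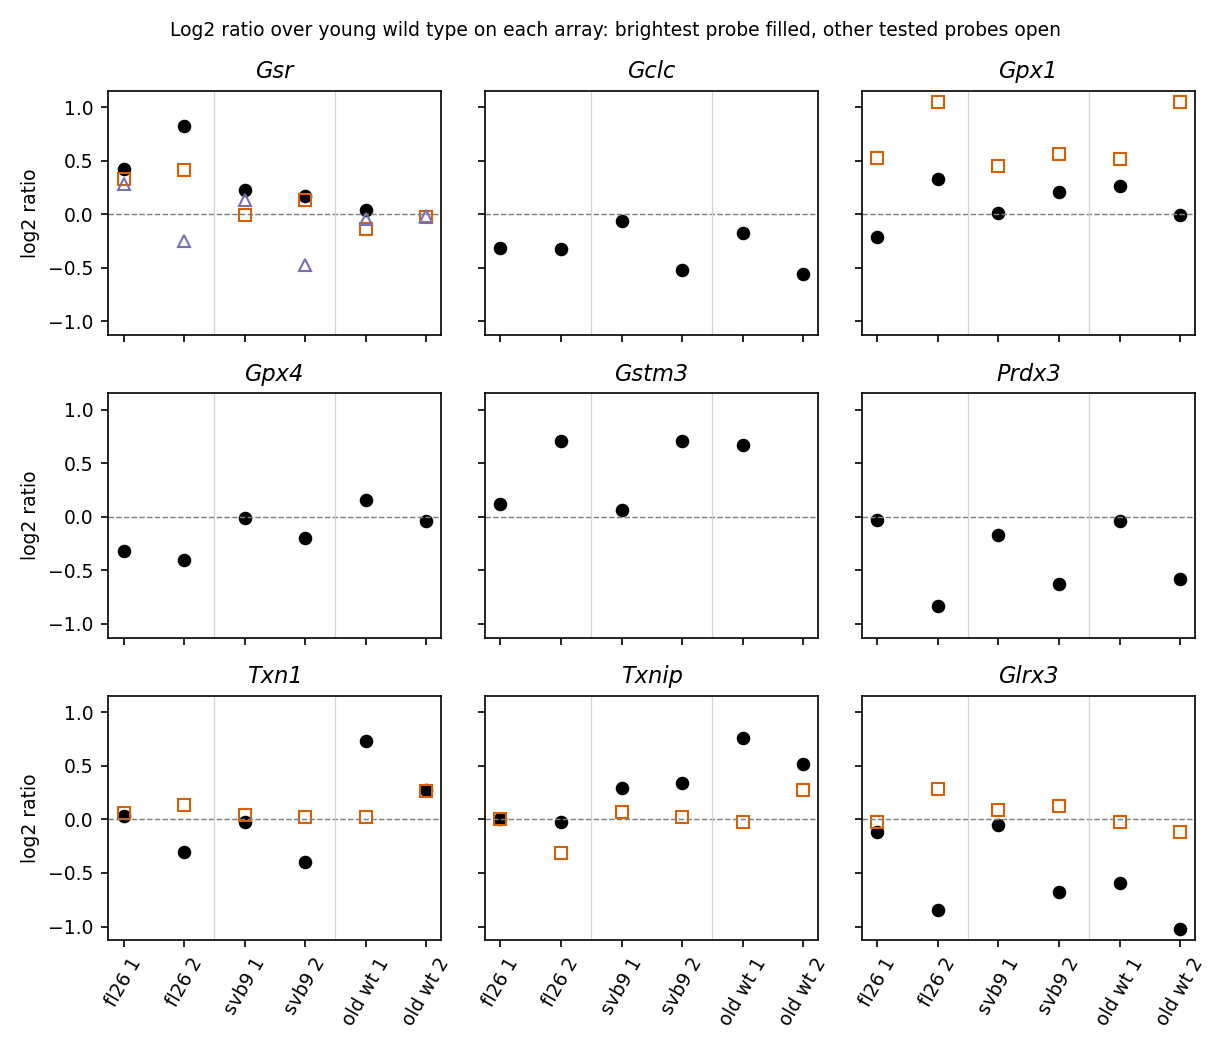
Log2 ratio over young wild type (vertical axis) on each of the 6 arrays (horizontal axis) for 9 members, with the brightest probe filled and other tested probes open. Gsr is highest on the fl26 arrays and Txnip and Txn1 on the old wild type arrays, while Prdx3 and Glrx3 are lower on array 2 than on array 1 in every group, and the second probes of Gpx1, Txn1, Txnip and Glrx3 depart from the brightest.

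The thioredoxin-like and thioredoxin domain proteins, 15 tested genes with Txnip, had medians of -0.01 for fl26, -0.05 for svb9 and -0.11 for old wild type. Glrx3, a glutaredoxin that carries iron-sulphur clusters, had the lowest member mean of all in old wild type. Its brightest probe had -0.12 and -0.84 in fl26, -0.05 and -0.68 in svb9 and -0.59 and -1.02 in old wild type. All 6 values lay below 0, with array 2 the lower in each group. The old wild type mean was -0.81 ± 0.22 (limma adjusted p = 0.265, and 0.00879 with the block), and in fl26 it was -0.48 ± 0.22 (0.527, and 0.0331 with the block). The other Glrx3 probe, also well above background on every array, had 0.28 on fl26 array 2 and -0.12 on old wild type array 2, so the low values belonged to 1 probe.

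Folding enzymes of the endoplasmic reticulum that share the thioredoxin fold were read by several probes each. Pdia6, a disulfide isomerase, had -0.39 and -0.63 in fl26, -0.43 and 0.13 in svb9 and -0.23 on 1 old wild type array. Another Pdia6 probe had -0.12 and -0.94 in fl26, 0.07 and -0.29 in svb9 and -0.34 and -0.77 in old wild type, and passed with the block in fl26 (mean -0.53, adjusted p = 0.0392) and in old wild type (mean -0.55, adjusted p = 0.0299). Erp44, which retains client proteins in the early secretory pathway, had -0.00 and -0.47 in fl26, -0.30 and 0.00 in svb9 and -0.08 and -0.25 in old wild type with its brightest probe. An Erp44 probe of opposite sign had 0.43 and 0.76 in fl26, -0.09 and 0.63 in svb9 and 0.01 and 0.47 in old wild type. Its fl26 mean of 0.60 ± 0.20 passed with the block (adjusted p = 0.0239) and not without it (0.399). Tmx1, a membrane-bound member of this family, had 0.04 and -0.76 in fl26, 0.08 and -0.43 in svb9 and -0.15 and -0.74 in old wild type. Array 2 was the low one in each group, and the old wild type mean of -0.44 ± 0.23 passed with the block (adjusted p = 0.0339). On the old arrays the Tmx1 signal was not well above background in both channels throughout. Txndc5, another endoplasmic reticulum disulfide isomerase, had 0.05 and 0.21 in fl26, -0.14 and 0.37 in svb9 and 0.07 and 0.17 in old wild type, with means of 0.13, 0.12 and 0.12. Its other probe differed in sign in its means, with -0.00 and -0.09 in fl26, -0.10 and 0.02 in svb9 and -0.35 and -0.13 in old wild type.

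Txnl4a is a small protein of the spliceosome, and Txnl4b is related to it. Txnl4a had 0.02 and 0.55 in fl26, -0.01 and 0.49 in svb9 and -0.16 on 1 old wild type array with its brightest probe. Its 2 other probes had fl26 means of -0.21 and -0.34, opposite in sign. Txnl4b had -0.05 and 0.45 in fl26, 0.08 and 0.34 in svb9 and -0.13 and 0.24 in old wild type. Its other probe had -0.12 and 0.20 in fl26, 0.00 and 0.10 in svb9 and -0.26 and 0.19 in old wild type. Disagreement of this kind was common: of the 25 members with 2 or more tested probes, 11 had probes of opposite sign in fl26, 13 in svb9 and 10 of 23 in old wild type, with median gaps between highest and lowest probe of 0.24, 0.19 and 0.32.

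The enzymes that remove superoxide and hydrogen peroxide directly are the superoxide dismutases and catalase. Cat, catalase of the peroxisome, had 0.09 and -0.56 in fl26, -0.15 and -0.26 in svb9 and -0.10 and -0.47 in old wild type. The means were -0.23, -0.21 and -0.29, each ± 0.17, and did not pass. Sod1, the cytosolic copper and zinc enzyme, had 0.09 and -0.55 in fl26, -0.02 and 0.05 in svb9 and -0.17 on 1 old wild type array with its brightest probe. Another Sod1 probe, printed 10 times, lay above 0 on all 6 arrays, at 0.09 and 0.07 in fl26, 0.13 and 0.02 in svb9 and 0.03 and 0.11 in old wild type. The third had -0.06 and 0.02 in fl26, -0.20 and -0.05 in svb9 and 0.09 and -0.05 in old wild type. Sod2, the mitochondrial manganese enzyme, had 0.16 and -0.05 in fl26 and 0.05 and -0.18 in svb9, with arrays of opposite sign in both lines.

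Nqo1 and Hmox1, among the best known NRF2 target genes, had ratios near 0. Hmox1, the inducible haem oxygenase, had 0.10 and -0.05 in fl26, -0.00 and 0.02 in svb9 and 0.08 and -0.06 in old wild type, with a standard error of 0.08 for each mean. Nqo1, a quinone reductase, had 0.00 and 0.03 in fl26, -0.00 and 0.12 in svb9 and 0.02 and -0.12 in old wild type. Its red signal was not well above background on array 2 of either line or on the old wild type arrays, so a ratio near 0 there says little about its level. Hmox2, the constitutive form, had means of -0.08 in fl26, 0.14 in svb9 and 0.19 on 1 old wild type array.

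Between the groups in red, where the dye cancels, no member probe passed the test. The counts were 0 of 100 for fl26 against svb9, 0 of 95 for old wild type against fl26 and 0 of 95 for old wild type against svb9, against 0% of all probes in each. At an unadjusted p under 0.05 they were 4 of 100 (4%), against 2.18% of all probes, 11 of 95 (11.6%), against 7.74%, and 5 of 95 (5.26%), against 4.71%. The median difference over members was -0.04, -0.01 and -0.04 in the same order. With the block none of 95 member probes passed in these comparisons, where 0.0362%, 0.0905% and 0% of all probes did, and with the date none of 94, where 0.00728%, 0.0182% and 0% did. Old wild type over fl26 ran from -0.58 for Gsr to 0.66 for Txndc11. The brightest probe of each of these genes was measured on only 1 old array.

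Genes around these chains were examined in 7 lists. Without the block, none of their tested probes passed in any of the 3 groups, where the shares of all probes were those given above. In fl26 the block fit called 0 of 20 tested probes of the NRF2 circuit and 1 of 45 of its targets. It called 3 of 36 for glutathione breakdown and supply, 1 of 38 for repair enzymes and 0 of 30 for selenoproteins. For peroxide sources it called 2 of 32 and for transferase relatives 1 of 19, against 3.07% of all probes. In old wild type the counts in this order were 1, 1, 4, 4, 0, 1 and 1, against 4.38%. Of 14 genes of the NRF2 circuit (NRF2 itself, its adaptor Keap1, the Maf and Bach partners and others), 6 lay above 0 and 8 below in fl26 with a median of -0.08, 2 above and 12 below in svb9 (-0.05), and 3 above and 11 below in old wild type (-0.06). Keap1, which marks NRF2 for degradation, had -0.40 and -0.09 in fl26 and -0.16 and -0.57 in svb9. Of 30 NRF2 targets outside the members, the median was 0.03 for fl26, -0.02 for svb9 and 0.02 for old wild type. Among them Mt2, a metallothionein, had 0.54 and 0.35 in fl26, and its mean of 0.45 ± 0.11 passed only with the block (limma adjusted p = 0.0438, against 0.313 without it). Fth1, the ferritin heavy chain, had 0.02 and 0.90 in fl26 and 0.13 and 0.92 in svb9, high on array 2 alone. G6pdx, which supplies NADPH, had 0.31 and 0.27 in old wild type (adjusted p = 0.367).

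Genes of glutathione breakdown and supply had medians of -0.02, -0.03 and -0.08 over 24 genes in fl26, svb9 and old wild type. Ggt6, a member of the gamma-glutamyltransferase family, had -0.58 and -0.79 in fl26 and -0.26 and -0.65 in svb9. Its fl26 mean of -0.68 ± 0.13 passed with the block (limma adjusted p = 0.0146, against 0.235 without it). Anpep, an aminopeptidase that can split the dipeptide left after the first step of breakdown, had -0.24 and -0.97 in fl26, -0.07 and -0.85 in svb9 and -0.35 and -0.49 in old wild type. Its fl26 mean also passed only with the block (adjusted p = 0.046, against 0.451 without it). The lists of glutaredoxins and repair enzymes, selenoproteins and sources of superoxide and peroxide had medians of -0.01, -0.07 and -0.01 in fl26, -0.03, -0.00 and -0.01 in svb9 and -0.17, -0.00 and 0.00 in old wild type. Glrx3, Pdia6, Erp44 and Txnrd1, which belong to the first of these lists and to the members, were left out of its medians. Ccs, the copper chaperone of Sod1, had -0.28 and -0.59 in old wild type, and passed only with the block (adjusted p = 0.0276, against 0.253 without it). Sesn3, of the stress-induced sestrins, had -0.39 and -0.93 in old wild type (0.0381 with the block, 0.54 without it), and Maoa, a monoamine oxidase that yields hydrogen peroxide, had 0.44 and 0.30 in fl26 (0.0437 with the block, 0.307 without it). Aifm1, a mitochondrial flavoprotein, had 0.20 and 0.58 in fl26 and 0.10 and 0.45 in svb9. Relatives of the transferases had medians of -0.07, -0.08 and -0.03. Of these, Clic4, a channel-like protein with a transferase fold, had -0.44 and -0.66 in fl26 and passed only with the block (adjusted p = 0.0181, against 0.269 without it).

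Markers of cell types also differed between arrays. Luminal epithelial markers, 11 of 11 measured, had array medians of -0.12 and 0.17 in fl26, 0.04 and 0.11 in svb9 and 0.38 and 0.36 in old wild type. Markers of ventral prostate secretion, 8 of 9, had -0.72 and 0.32 in fl26, -0.82 and 0.38 in svb9 and 1.69 and 0.64 in old wild type. Fibroblast markers, 10 of 10, had 0.76 and -0.12 in fl26, 0.29 and 0.02 in svb9 and 0.06 and -0.18 in old wild type, and macrophage markers, 11 of 12, had 0.47 and 0.02, 0.10 and -0.03, and -0.03 and 0.07. Basal epithelial markers, 9 of 10, had 0.43 and 0.16, -0.12 and 0.05, and -0.14 and -0.22. Erythrocyte markers, 5 of 12, had medians over the arrays of 0.36 for fl26, 0.05 for svb9 and 0.09 for old wild type. No probe of the 5 liver genes on the array was bright enough to be tested, and only 2 of 7 epididymal genes were. The part of these shifts in the member values was not tested, and in pooled tissue fewer cells of a type and less RNA per cell cannot be told apart.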

How the data were processed

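The deposited scanner files of 6 arrays with 2 colours hold, per the file headers, mean spot intensities and median background intensities read with Agilent Feature Extraction, not normalized. Per the file headers they also hold log10 ratios of red over green that the software had background-subtracted, detrended and dye-normalized, and 0 or 1 flags for signal, saturation and outliers. The deposited series table holds the same log10 ratios rounded and was not used for results.

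The log2 ratios were computed here from the deposited intensities with limma 3.58.1 under R 4.3.3. Outlier spots and 2256 control spots of 43790 were dropped, background was corrected by normexp with an offset of 50, arrays were normalized by loess, and spots of a probe were averaged. A probe was tested if in some group 1 channel stood well above background on both arrays (27860 probes, 27626 of them in comparisons with old wild type). The limma fit had 3 group means, was 2-sided and adjusted by Benjamini-Hochberg over all probes tested, with 0.05 as threshold. With 2 arrays per group, the number of arrays limits the precision, and p-values measure the spread between these arrays. Those of the block and date fits leave out shifts shared by arrays of 1 number or 1 date. Testing a mean ratio against 0 ignores variation among young wild type pools if the arrays shared 1.

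The members, gene lists and markers were chosen with earlier results of these data known. Values on every array were given for any member past the threshold, for up to 5 members with the highest and 5 with the lowest mean in each group among those with 1 sign on both arrays and both channels above background, and for 23 members fixed by name, of which Sod3 had no tested probe. Other probes of these members were added, some by their means alone, where they differed in sign or passed in an alternative fit. Of each neighbouring list, up to 2 genes per group were eligible by the same rule, and those described were taken from them. The Alox15b probe, Prdx6b, Tmx1, Txnrd3, Gpx6, Gstm2, Prdx4, Hmox2, Mgst3 and Txndc11 fall outside it or were added after values were seen. Genes were named through accession (100 member probes), synonym (4) or the file's own name (9), through a RefSeq gene table (GRCm38.p6) that gave names and gene order but no coordinates.

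Groups share the replicate numbers 1 and 2. The deviations of arrays with 1 number from their group means had an r of 0.61 between fl26 and svb9, 0.33 between fl26 and old wild type, and 0.17 between svb9 and old wild type. The numbers were therefore taken to pair arrays, from these values and not from any label, and the replicate block is printed beside each described result whose call it changed. The headers give 3 dates of feature extraction, shared by fl26 1 with svb9 1, by fl26 2 with old wild type 1, and by svb9 2 with old wild type 2.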

Additional observations from a re-analysis of the deposited data

How the results depend on the processing

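No member probe was called in svb9 or between groups in red under any of 18 alternatives. In fl26 none was called under 16 of them and in old wild type under 17. The exceptions were the replicate block, with 11 member probes in fl26 and 9 in old wild type, and the date as a term, with 1 in fl26. Over all probes, the count of 14 in fl26 became 2 without background correction, 0 with median centring, 6 with the ratios of Feature Extraction, 63 with a trend in the variance, 103 with the date, 849 with the replicate block, 0 with only the arrays compared and 0 to 1 with an array left out (1 without fl26 array 2). The count of 0 in old wild type became 29 with the strict filter on dim probes, 8 with outlier spots kept, 176 with the trend, 11 with the date, 1210 with the block, 53 with only the arrays compared and 0 to 2 with an array left out (2 without either fl26 array). A group left with 1 array was assumed to vary like the others. For fl26 against svb9 it became 4 with the trend, 2 with the date and 10 with the block, and for old wild type against fl26 3 with the strict filter, 2 with the trend, 5 with the date and 25 with the block.

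The member median moved to 0.19 in fl26 with median centring. In old wild type it was -0.0281 without background correction, -1.62 with median centring, -0.158 with the ratios of Feature Extraction, -0.0805 with the strict filter, -0.0307 with outlier spots kept, -0.0689 with the date and -0.0285 with the block. With 1 array left out it lay between -0.0465 and -0.0194 in fl26, -0.0152 and 0.0204 in svb9 and -0.0504 and -0.0403 in old wild type. The causes were not tested.

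Over the 104 mean ratios of the 36 named members and 18 alternatives, 1844 values were obtained. Of these, 98 changed sign without being called in either setting, 32 of them under median centring, and 10 were newly called, all with the block. The other values kept their sign and stayed uncalled. Counted by mean ratio, 48 of the 104 kept 1 sign under all 18 alternatives. The adjusted p ranged over the alternatives from 0.0386 to 1 for Gsr in fl26, 0.0165 to 0.307 for Txnip in old wild type, 0.0198 to 0.971 for Txn1 in old wild type and 0.00879 to 0.955 for Glrx3 in old wild type. Precision was limited by 2 arrays per group and, in old wild type, by red signal near background and by bright spots left out as outliers.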
